A study of Canis lupus familiaris with 30 samples.

Results

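Among canine follicular thyroid carcinomas (FTC), tumors with a high transcript level of *IGF2BP2* were compared with tumors in which that transcript was low. The series holds RNA-seq of 30 primary thyroid tumors of dogs (*Canis lupus familiaris*), each a single library of total RNA from tumor tissue depleted of ribosomal RNA, and 24 of the 30 were compared. Left out were the 5 tumors that the study classed as medullary (MTC), which arise from the C cells of the thyroid, and TC1088, a follicular tumor that the study had set aside. The labels name every sample as thyroid tumor tissue and give no treatment, breed, age or batch, so the groups were chosen by the *IGF2BP2* count itself. A tumor was called *IGF2BP2*-high if its level, which is log2 of 1 plus the count over the size factor of that library, was above 7, and *IGF2BP2*-low if it was 7 or below, which gave 16 high and 8 low tumors.

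*IGF2BP2* encodes an RNA-binding protein of the insulin-like growth factor 2 mRNA-binding family. Its members bind target mRNAs, many of them carrying the m6A base modification, and affect their stability, transport and translation. The family is expressed widely in the embryo and less in most adult tissues, and *IGF2BP2* is expressed in several human cancers, those of the thyroid among them.

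The level of *IGF2BP2* (ENSCAFG00000013297) fell into separate ranges. In the 16 high tumors it was 8.40 at the lowest, 9.87 at the median and 11.60 at the highest (mean 10.03 ± 0.97, SD). In the 8 low tumors it was 2.25, 3.76 and 5.16 (mean 3.72 ± 0.98, SD). TC22 and TC902 were the lowest of the high tumors, at 8.40 and 8.55, and TC2288 and TC1593 the highest of the low ones, at 5.16 and 4.66, so that 3.24 log2 units without a tumor lay between the groups. These levels chose the groups and are given as a description.

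In reads, the low tumors held 2 to 31 counts of *IGF2BP2* and the high tumors 480 to 3237. The median normalized count was 73.8-fold higher in the high group, and the weakest high tumor exceeded the strongest low tumor 9.71-fold. At the low end the 2 counts of TC538 and the 3 of TC627 do not exceed the 3 counts that a count of 0 allows, so for these tumors absence and a trace cannot be told apart. The tumors left out lay on both sides of the cutoff. TC1088 had a level of 8.21, and the MTC had 1.83 (TC2289), 2.06 (TC1936), 4.96 (TC1601), 7.27 (TC1473) and 8.61 (TC1020).

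**Figure D1:**
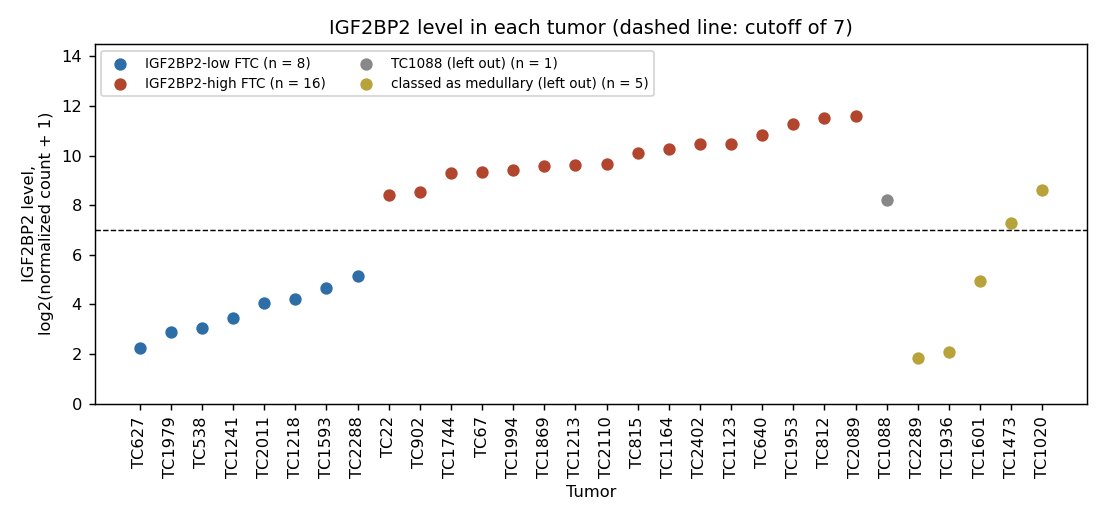
Level of *IGF2BP2*, as log2 of the normalized count plus 1, in each of the 30 tumors, with 1 point per tumor and the cutoff of 7 as a dashed line. The 8 low FTC lie between 2.25 and 5.16 and the 16 high FTC between 8.40 and 11.60, with no FTC between these ranges, and the 5 MTC spread from 1.83 to 8.61.

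Depth showed no difference between the groups beyond the spread among tumors. Totals of reads on genes ran from 12288945 to 45148677 a tumor, and the mean total was 1572400 counts larger in the high group (p = 0.617, two-sided exact permutation test over 735471 splits, 0.643 after Benjamini-Hochberg adjustment over 8 technical measures). TC538, a low tumor, stood apart from the others. It had the fewest counts and the smallest size factor (0.279, against 0.713 to 1.62 in the other 23 tumors), 5.77% of its counts were mitochondrial (1.17% to 3.25% in the others), and its Spearman correlation with the median tumor was 0.825 (0.927 to 0.970 in the others). Results that rest on TC538 are therefore given with and without it. Of the 8 technical measures, the correlation with the median tumor had the smallest p. Its mean was 0.953 in high and 0.929 in low tumors (exact permutation test, p = 0.0137, 0.110 after Benjamini-Hochberg adjustment). Without TC538 the low mean was 0.944 (exact permutation test, p = 0.0753, adjusted 0.501).

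All 24 tumors carried the transcripts that define follicular cells. *TG*, the thyroglobulin from which thyroid hormone is made, had a level of 13.46 at the lowest in high tumors and 13.00 in low tumors. *PAX8*, a transcription factor of the follicular lineage, was between 12.88 and 14.94 in high tumors and between 10.84 and 13.97 in low tumors, with TC538 the lowest. Because whole tumor tissue was sequenced, fewer cells of a type and less RNA per cell cannot be told apart in any of the values here.

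Few genes followed the split in *IGF2BP2*. Of 18008 other genes that reached 10 counts in 5 or more tumors, 0 were higher in the high tumors (0%) and 5 were higher in the low tumors (0.0278%) by edgeR's quasi-likelihood test at an adjusted p below 0.05. At an unadjusted p below 0.05 there were 631 genes higher in the high tumors (3.5%) and 1353 higher in the low tumors (7.51%), and the median log2 fold change of all genes was -0.02. No gene tested had levels in the 16 high tumors that were all above, or all below, those in the 8 low tumors (0%). DESeq2, run as an alternative, called 34 genes higher in the high tumors (0.189%) and 53 higher in the low tumors (0.294%), and limma-trend called 0 in either direction. DESeq2 without TC538 called 33 (0.184%) and 29 (0.161%). Without TC538 the quasi-likelihood test called 0 genes in either direction, with 1141 at an unadjusted p below 0.05, and leaving out TC1164, TC2110 or TC2402, 3 of the high tumors, in turn also left 0 calls. Called counts thus moved with single tumors of both groups.

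The genes higher in *IGF2BP2*-low tumors were *SLC16A9*, *SLC1A2* and 3 genes that carry no symbol in the deposited table. *SLC16A9* (ENSCAFG00000012440) encodes a monocarboxylate transporter that carries carnitine. Its level was 0 at the lowest, 5.96 at the median and 7.84 at the highest in high tumors, and 4.93, 8.27 and 13.48 in low tumors. The groups overlapped, with 4 of 8 low tumors above every high tumor and TC538 the highest of all. It was lower in the high tumors by a log2 fold change of -4.64 ± 0.79 (SE; edgeR quasi-likelihood test, Benjamini-Hochberg adjusted p = 0.0239), and by -2.87 without TC538, where it did not pass (adjusted p = 0.137; from 1.9e-06 to 0.495 over all alternatives).

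ENSCAFG00000042710, without a symbol, kept the size of its difference without TC538. Its level was 2.09, 4.72 and 7.40 in high tumors (lowest, median and highest) and 2.25, 8.82 and 11.15 in low tumors. A total of 6 of 8 low tumors lay above every high tumor, while TC1241, at 6.27, and TC627, at 2.25, lay within the range of the high ones. The log2 fold change was -3.83 ± 0.66 (SE; edgeR quasi-likelihood test, adjusted p = 0.0239), and -3.91 without TC538 (adjusted p = 0.0756; from 5.4e-06 to 0.409 over all alternatives).

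ENSCAFG00000035645 showed a shift of most low tumors and a large value in TC538. Its level was 3.62, 4.87 and 6.11 in high tumors and 5.84, 6.51 and 10.74 in low tumors. All but 2 of the high tumors were below the lowest low tumor, and the log2 fold change was -3.07 ± 0.51 (SE; edgeR quasi-likelihood test, adjusted p = 0.0239). Without TC538 it was -1.53 (adjusted p = 0.111; from 0.0044 to 0.224 over all alternatives).

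The remaining calls rested on 1 tumor each. *SLC1A2* (ENSCAFG00000006881), a glutamate transporter, had a level of 11.77 in TC1241, 5.34 at the highest in the other low tumors and 4.24 at the highest in high tumors. Its log2 fold change was -5.71 ± 1.05 (SE; edgeR quasi-likelihood test, adjusted p = 0.0446), and -0.26 without TC1241 (adjusted p = 0.883; from 0.0147 to 0.975 over all alternatives). ENSCAFG00000035038 had a level of 11.52 in TC538 and 6.94 at the highest in the other low tumors, against 6.43 at the highest in high tumors. Its log2 fold change of -3.80 ± 0.71 (SE; edgeR quasi-likelihood test, adjusted p = 0.0446) was -1.15 without TC538 (adjusted p = 0.638; from 0.0112 to 0.685 over all alternatives).

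No gene passed the quasi-likelihood test in the other direction, and the genes nearest to the threshold among those higher in *IGF2BP2*-high tumors were *KCNQ3*, *DNER*, *NCR3LG1*, *DGKB* and *MMP28*, with edgeR quasi-likelihood adjusted p-values from 0.0874 to 0.127. DESeq2 called all 5 both with and without TC538, and with all tumors its adjusted p was 2.04e-06 for *DNER*, 2.24e-05 for *KCNQ3*, 0.000572 for *DGKB*, 0.000962 for *NCR3LG1* and 0.00872 for *MMP28*. With no count filter *KCNQ3* and *DNER* also passed the quasi-likelihood test (edgeR adjusted p = 0.0449 and 0.0476). *KCNQ3* encodes a subunit of a voltage-gated potassium channel best known from neurons. It had at most 3 counts in any low tumor, and in high tumors its level was 0 at the lowest, 4.39 at the median and 9.23 at the highest. In 14 of 16 high tumors *KCNQ3* was above every low tumor, while the other 2 high tumors had a count of 0. Among the 14, TC2089 had only 2 counts, which cannot be told from 0. The log2 fold change of *KCNQ3* was 6.61 ± 1.42 (SE). Its size is uncertain, since no low tumor exceeded the 3 counts that a count of 0 allows. *KCNQ3* thus passed the count filter through high tumors alone.

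*DNER*, a Notch-related transmembrane receptor of neurons, had a level of 3.13, 6.20 and 11.00 in high tumors and 2.25, 3.25 and 5.22 in low tumors (log2 fold change 4.62 ± 1.00, SE). *NCR3LG1*, which encodes the B7-H6 ligand of an activating receptor of NK cells, had 5.53, 6.67 and 7.25 in high tumors and 4.47, 5.31 and 5.95 in low tumors (1.26 ± 0.27, SE). For both genes 12 of 16 high tumors lay above every low tumor. *DGKB*, a diacylglycerol kinase, spread widely in high tumors, from 0 to 11.43, with 9 of 16 above every low tumor (8.20 ± 1.95, SE). No low tumor had more than 2 counts of *DGKB*, so it also passed the count filter through high tumors alone. The size of its fold change is uncertain.

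*MMP28* encodes a secreted matrix metalloproteinase. Its level was 6.33, 8.06 and 9.07 in high tumors and 5.34, 6.85 and 7.54 in low tumors, and 14 of 16 high tumors lay above every low tumor. The log2 fold change of *MMP28* was 1.29 ± 0.31 (SE), with an edgeR quasi-likelihood adjusted p of 0.127.

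**Figure D2:**
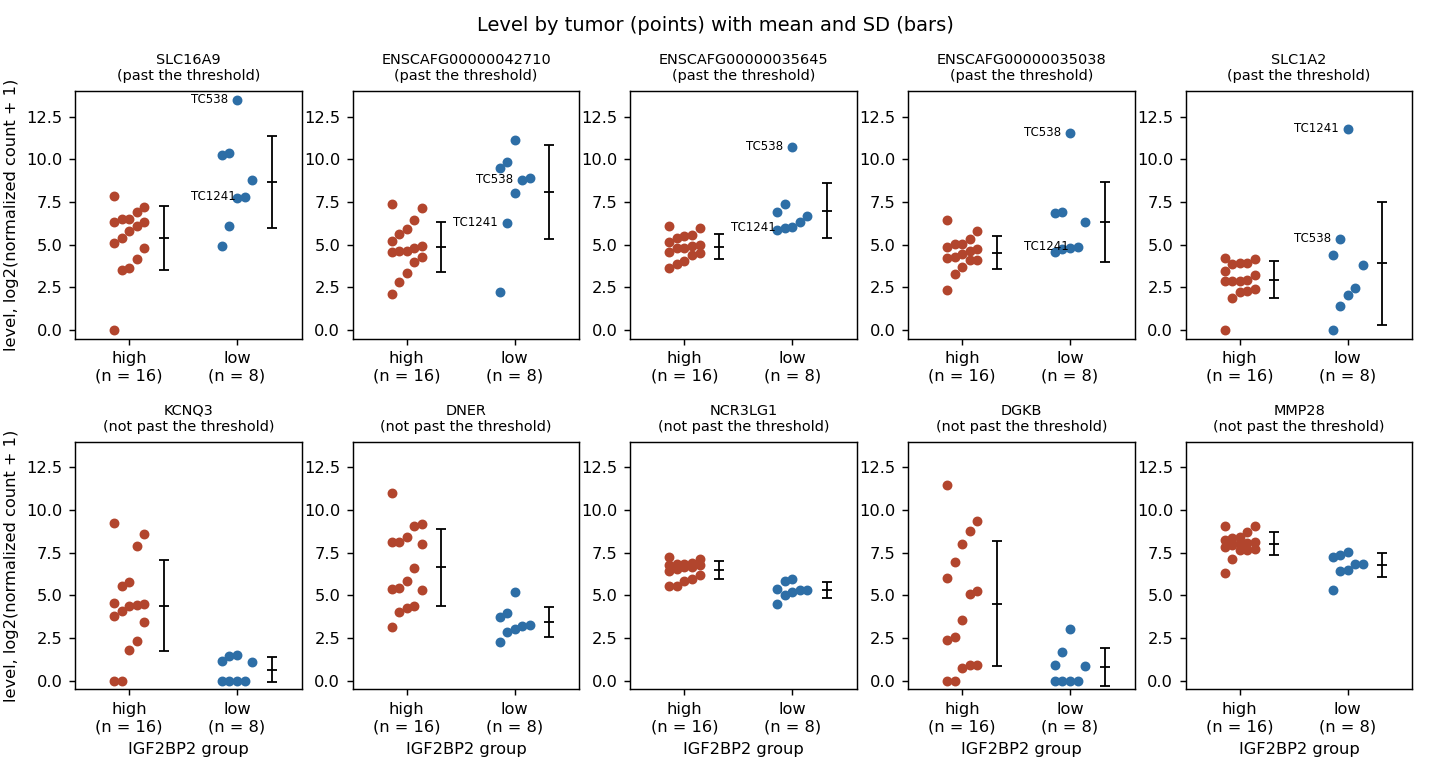
Level of 10 genes in the 16 *IGF2BP2*-high and the 8 *IGF2BP2*-low tumors, as log2 of the normalized count plus 1, with 1 point per tumor and the mean and SD beside each group. The upper row shows the 5 genes that passed the threshold, where TC538 or TC1241 is often the highest low tumor, and the lower row the 5 genes nearest to it in the other direction, none of which passed edgeR's quasi-likelihood test, while DESeq2 called all 5.

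The genes whose levels ordered the 24 tumors most like *IGF2BP2* were *ACSF2* (Spearman's rho 0.78), *SMAD3* (0.75), *NCR3LG1* (0.73), *SHC4* (0.69) and *FMNL2* (0.66). They are named as a description over 24 tumors that share the split into groups. *ACSF2* encodes a mitochondrial acyl-CoA synthetase, and its level was 9.17, 10.27 and 12.67 in high tumors and 5.57, 8.85 and 10.14 in low tumors. *SMAD3*, the signal carrier of TGF-beta receptors, had 9.45, 10.01 and 11.06 in high tumors and 6.56, 9.17 and 9.77 in low tumors. A total of 9 of 16 high tumors for *ACSF2* and 11 of 16 for *SMAD3* were above every low tumor, and TC538 was the lowest tumor for both.

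*SHC4*, an adaptor of receptor tyrosine kinases, had a level of 4.53, 7.32 and 10.20 in high tumors and 3.72, 4.32 and 9.04 in low tumors, where TC1241 stood alone at the top. *FMNL2*, a formin that shapes actin filaments, had 8.66, 10.97 and 12.52 in high tumors and 7.00, 9.35 and 11.17 in low tumors. None of these genes passed the quasi-likelihood test over the 24 tumors (adjusted p between 0.0874 and 0.388). Without TC1241, however, *SHC4* passed it, and its log2 fold change went from 1.89 to 3.98 (edgeR quasi-likelihood adjusted p = 0.0249; from 0.0249 to 0.777 over all alternatives). TC1241 was the low tumor with the most *SHC4*, so leaving it out favors a difference, and this pass is no support for one.

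DESeq2 called 44 genes both with and without TC538, 25 of them higher in the high tumors and 19 lower. Of these, 19 had a symbol and reached a median of 100 normalized counts in the group where they were higher, and they are described here as a set chosen after their values were seen, with the log2 fold changes of the edgeR fit. The count limit left out *DNER*, *KCNQ3* and *DGKB*. Only *SLC16A9* among the 19 also passed the quasi-likelihood test over the 24 tumors. The 11 higher in high tumors were *LRP2* (4.49 ± 1.41, SE), *SLC39A4* (3.49 ± 0.99), *KRT23* (2.96 ± 0.88), *SPON1* (2.91 ± 0.81), *HSPB8* (2.71 ± 0.80), *SLC16A3* (2.35 ± 0.61), *PITPNC1* (2.09 ± 0.53), *ACSF2* (1.94 ± 0.47), *MMP28*, *NCR3LG1* and *SMAD3* (1.07 ± 0.29).

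*SLC39A4*, a zinc importer, had a level of 2.17, 8.21 and 10.26 in high tumors and 0, 3.14 and 7.75 in low tumors, and *SLC16A3*, the lactate exporter MCT4, had 7.15, 10.50 and 12.82 against 6.53, 8.49 and 9.63. For both genes 11 of 16 high tumors lay above every low tumor, and TC1218, at 7.75, was the low tumor with the most *SLC39A4*, the next being at 3.47. Without TC1218 the log2 fold change of *SLC39A4* was 5.99 and passed the quasi-likelihood test (edgeR adjusted p = 0.0143; from 0.0042 to 0.508 over all alternatives). *LRP2*, the endocytic receptor megalin that takes up thyroglobulin, ranged from 2.28 to 14.03 in high tumors and from 3.30 to 9.76 in low tumors, with 7 of 16 high tumors above every low tumor. *KRT23*, a keratin, had a median of 8.55 in high tumors and 3.45 in low tumors, with 8 of 16 high tumors above every low tumor. TC627, at 8.55, was the low tumor with the most *KRT23*. With all tumors *KRT23* did not pass the quasi-likelihood test (edgeR adjusted p = 0.236). Without TC627 its log2 fold change was 4.64 (edgeR quasi-likelihood adjusted p = 0.0367; from 0.0142 to 0.569 over all alternatives). Leaving out TC1218 for *SLC39A4* and TC627 for *KRT23*, the low tumors with the most of each, favors a difference. These passes are no support for one.

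The 8 that DESeq2 called higher in low tumors were *SLC16A9*, *LTF* (-3.42 ± 0.78, SE), *RPS27AP5* (-2.58 ± 0.51), *PPP1R1B* (-2.46 ± 0.63), *STBD1* (-1.43 ± 0.38), *EGFLAM* (-1.10 ± 0.98), *RPL34* (-0.98 ± 0.19) and *RCOR1* (-0.61 ± 0.17). *LTF* encodes the iron-binding lactotransferrin, and its level was 5.73, 9.32 and 11.70 in high tumors and 7.70, 10.20 and 15.38 in low tumors, with TC2011 the highest. Without TC2011 the log2 fold changes of *LTF*, *PPP1R1B* and *EGFLAM* were -2.27, -1.37 and 0.31. *EGFLAM* differed between the tools, at -2.87 with DESeq2 and -1.10 with edgeR (edgeR quasi-likelihood adjusted p = 0.693). Its highest level was 13.95 in high tumors, in TC22, and 14.03 in low tumors, in TC2011. *STBD1*, a glycogen-binding protein, and *RCOR1*, a corepressor of transcription, were each above every high tumor in 5 of 8 low tumors. *RPL34*, a ribosomal protein, was above every high tumor in 6 of 8. *RPL34* and *RPS27AP5* belong to families with near-identical copies, so their counts are uncertain. Both passed the quasi-likelihood test with some single tumors left out, *RPL34* without TC1218, TC1593 or TC2288 and *RPS27AP5* without TC1218, TC1241, TC1953 or TC627.

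In the gene lists no member passed the quasi-likelihood test in either direction. The 25 lists held 244 genes tested, of which 0 were called and 18 (7.38%) had an unadjusted p below 0.05, against 11% of all genes tested. DESeq2 called 2 of them with and without TC538, *SLC16A3* and *CASR*.

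The paralogs of *IGF2BP2* did not show its split. *IGF2BP1* had at most 5 counts in any of the 24 tumors and was not tested. *IGF2BP3* had a level of 3.34, 5.34 and 7.71 in high tumors and 3.47, 5.77 and 6.66 in low tumors, with a log2 fold change of 0.16 ± 0.48 (SE; edgeR quasi-likelihood adjusted p = 0.922), whose sign changed with the test used.

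Of the insulin-like growth factor system, the pathway after which the family is named, 16 of 19 listed genes were tested and 0 called, with a median log2 fold change of 0.20. The ligand *IGF2* had a level of 1.84, 6.10 and 8.68 in high tumors and 1.16, 5.34 and 8.01 in low tumors, and its log2 fold change was 0.63 ± 0.78 (SE). *IGF1* was at 0.57 ± 0.76 (SE), and *IGF1R*, the receptor of both ligands, at 0.15 ± 0.40 (SE). *IGFBP5*, a binding protein that sequesters the ligands, was at -0.40 ± 0.40 (SE). The edgeR quasi-likelihood adjusted p-values of these genes lay between 0.730 and 0.914.

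Among regulators of the oncofetal program, 8 of 12 were tested and 0 called. Of the log2 fold changes 4 were positive and 4 negative, with a median of 0.17 and a range from -0.78 (*AFP*) to 2.44 (*GPC3*). *HMGA1*, a chromatin architectural protein, had a level of 8.58, 10.16 and 11.63 in high tumors and 7.91, 9.31 and 10.62 in low tumors (log2 fold change 0.95 ± 0.40, SE; edgeR quasi-likelihood adjusted p = 0.384). *GPC3*, an oncofetal glypican, was at 2.44 ± 0.94 (SE; adjusted p = 0.339), and at 1.11 without TC640, its highest tumor. *PLAG1*, a zinc finger factor of fetal growth, was at 1.03 ± 0.71 (SE; adjusted p = 0.605). *LIN28A* had at most 17 counts and *LIN28B* at most 6 in any of the 24 tumors.

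The m6A machinery, whose mark the protein reads, had 17 of 19 genes tested and 0 called, and their log2 fold changes had a median of -0.14 and a range from -0.59 to 0.43. *METTL14*, a subunit of the methyltransferase, was at -0.52 ± 0.34 (SE; edgeR quasi-likelihood adjusted p = 0.585).

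The genes beside *IGF2BP2* on its chromosome did not share its split. Taking the 10 protein-coding genes on either side in the order of the UU_Cfam_GSD_1.0 assembly, 14 of 20 were tested and 0 called, with 10 negative and 4 positive log2 fold changes and a median of -0.26. The adjacent genes were *SENP2*, a SUMO protease, at -0.07 ± 0.22 (SE), and *TRA2B*, a splicing factor, at -0.22 ± 0.24 (SE). *ETV5*, a factor induced by MAPK signaling, was at 0.28 ± 0.40 (SE), and *MAP3K13*, a kinase of the stress pathways, at -1.22 ± 0.37 (SE; edgeR quasi-likelihood adjusted p = 0.244).

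*C34H3orf70* lay 6 genes away and ran against *IGF2BP2*, with a Spearman's rho of -0.70 over the 24 tumors. Its level was 6.10, 7.82 and 9.46 in high tumors and 8.01, 8.96 and 9.60 in low tumors, and 10 of 16 high tumors lay below every low tumor. Its log2 fold change was -0.92 ± 0.37 (SE; edgeR quasi-likelihood adjusted p = 0.353).

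**Figure D3:**
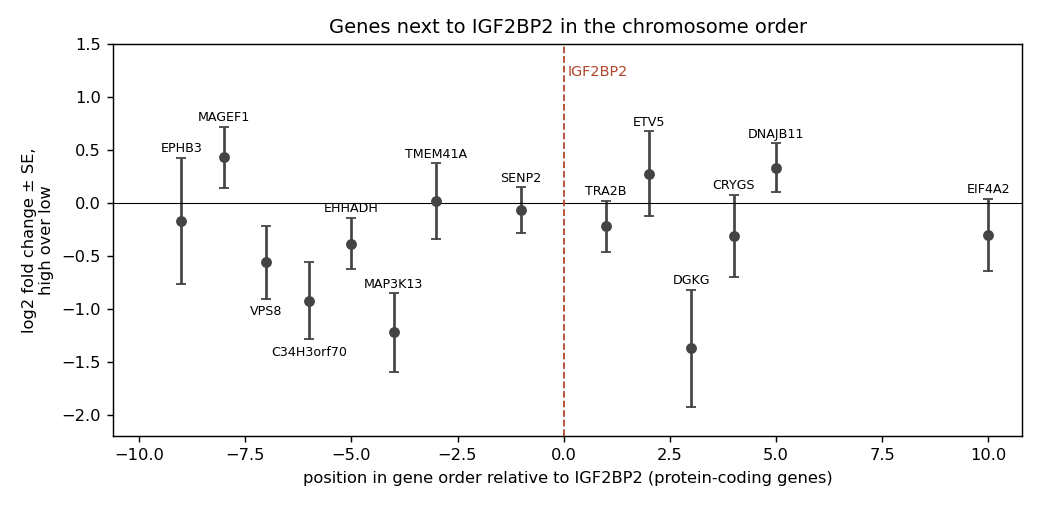
Log2 fold change of *IGF2BP2*-high over *IGF2BP2*-low tumors, with its SE, of the 14 tested genes within 10 protein-coding genes of *IGF2BP2*, by their place in the gene order. The genes next to *IGF2BP2* lie near 0, and the lowest values are those of *DGKG* and *MAP3K13*, which did not pass the test, and *DGKG* was at -0.70 without TC1979, against -1.38 with it.

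The thyroid program was present in both groups and no member differed by the test. Of 20 listed genes 19 were tested and 0 called, with a median log2 fold change of 0.27. *TG* had a median level of 19.20 in high tumors and 18.88 in low tumors (0.40 ± 0.88, SE), and *SLC5A5*, the iodide importer, 12.80 and 12.16 (0.57 ± 1.14, SE). The spread within each group exceeded the differences, since *TG* alone ranged over 13.46 to 22.65 in high tumors and 13.00 to 21.92 in low tumors.

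Receptors of the thyroid axis had lower medians in high tumors without passing the test. *TSHR*, the thyrotropin receptor, had a level of 10.74, 12.24 and 13.97 in high tumors and 12.00, 12.83 and 14.11 in low tumors (log2 fold change -0.72 ± 0.34, SE; edgeR quasi-likelihood adjusted p = 0.446). *TRHR*, the receptor of thyrotropin-releasing hormone, had a median of 8.86 in high tumors and 11.02 in low tumors (-1.47 ± 0.74, SE; adjusted p = 0.472). For *TSHR* 7 and for *TRHR* 6 of 16 high tumors lay below every low tumor. *IYD*, which recycles iodide, was at 0.80 ± 0.35 (SE; adjusted p = 0.399).

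Growth-related lists showed no called gene. Of 19 cell cycle genes tested 0 were called, the median log2 fold change was 0.08 and the range -0.14 to 0.72, with *TOP2A*, the topoisomerase of dividing cells, at 0.39 ± 0.32 (SE). Of 17 MAPK output genes 0 were called (median -0.09), and of 16 receptor tyrosine kinases 0 (median 0.08), where *FGFR3* was at 0.71 ± 0.35 (SE). Of 16 genes of the PI3K, AKT and mTOR pathway 0 were called (median 0.03).

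In that pathway *RICTOR*, a subunit of mTORC2, was at -1.05 ± 0.49 (SE; edgeR quasi-likelihood adjusted p = 0.427). TC538 was its highest low tumor, and without TC538 it was at -0.25.

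Of 12 glycolysis genes 0 were called by the quasi-likelihood test (median 0.13). The highest was *SLC16A3* at 2.35 ± 0.61 (SE; edgeR quasi-likelihood adjusted p = 0.165; from 0.0070 to 0.647 over all alternatives), and the lowest *HK2*, a hexokinase, at -1.28 ± 0.83 (SE; adjusted p = 0.582), and at -0.55 without TC1593.

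All 12 collagen and matrix genes had a positive log2 fold change, from 0.20 to 1.27 with a median of 0.66, but 0 were called and 0 had an unadjusted p below 0.05. Laminins and integrins had a median of 0.11 over 13 genes with 0 called. Claudins and keratins had a median of 0.92 over 7 genes, 4 positive and 3 negative, with 0 called. Of the tight junction genes, *CLDN1* was at 1.51 ± 0.77 (SE), *CLDN16* at 1.30 and *CLDN7* at 0.92 ± 0.45 (SE), while *CLDN4* was at -0.02 and *CLDN10* at -1.04. For *CLDN7*, TC1241 was the lowest low tumor, at 6.24 (next 9.74).

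Of 12 genes of cadherins and epithelial-mesenchymal transition 0 were called (median -0.05), with 6 positive and 6 negative log2 fold changes. The highest was *CDH16*, another cadherin, at 1.37, and *ZEB1*, *ZEB2* and *CDH2* were at -0.11, -0.35 and -0.11. *CDH1*, the epithelial cadherin, was at -0.50 ± 0.29 (SE) and *FN1*, fibronectin, at 0.86 ± 0.51 (SE). *VIM*, the mesenchymal intermediate filament, had a level of 12.10, 13.06 and 14.79 in high tumors and 11.45, 12.29 and 13.29 in low tumors, and was at 0.78 ± 0.34 (SE; edgeR quasi-likelihood adjusted p = 0.406). *SNAI1*, a repressor of *CDH1*, was at 0.79 ± 0.36 (SE; adjusted p = 0.423).

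**Figure D4:**
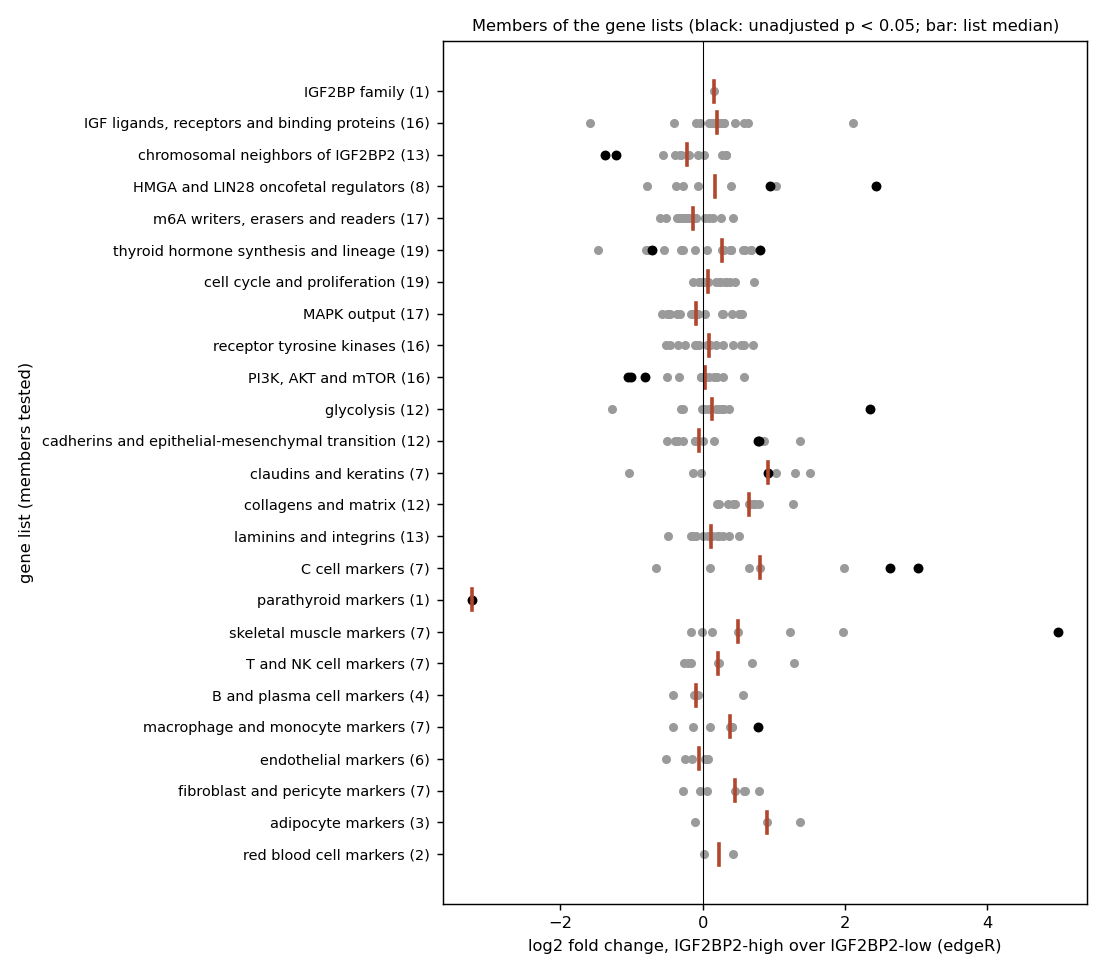
Log2 fold change of *IGF2BP2*-high over *IGF2BP2*-low tumors for each tested member of the 25 gene lists, with 1 point per gene, the list median as a vertical bar and genes with an unadjusted p below 0.05 in black. The medians of the lists with at least 10 genes tested lie between -0.22 and 0.66, and no gene shown passed edgeR's quasi-likelihood test at the adjusted threshold.

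Markers of other cells that thyroid tissue can hold were measured in both groups. The summed level of 7 macrophage and monocyte markers was 10.87, 12.24 and 13.51 in high tumors and 11.23, 12.32 and 12.90 in low tumors, and that of 6 endothelial markers was 12.06, 13.69 and 14.70 against 13.02, 13.39 and 14.86. For fibroblast and pericyte markers (7 genes) it was 10.77, 12.53 and 14.07 against 11.61, 12.43 and 13.55. The groups overlapped for each of these.

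The remaining sums overlapped as well. For 7 T and NK cell markers they were 6.23, 7.66 and 11.39 in high tumors and 6.91, 7.72 and 8.33 in low tumors, for 6 B and plasma cell markers 12.97, 13.43 and 15.02 against 12.94, 13.92 and 14.53, for 3 adipocyte markers 7.00, 9.15 and 10.35 against 7.78, 8.66 and 11.30, and for 3 red blood cell markers 5.63, 6.56 and 7.22 against 5.42, 6.37 and 7.25. No marker of any list was at 0 in all 24 tumors.

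Single markers of parathyroid cells were high in some low tumors, and *CALCA*, a marker of C cells, in some high tumors. Parathyroid markers summed to 14.84 in TC2288, a low tumor, where *PTH*, the parathyroid hormone, had 25445 counts, against at most 8 counts in the other low tumors and 21 in the high tumors. *CASR*, the calcium-sensing receptor of parathyroid cells, had a level of 0.92, 2.97 and 6.59 in high tumors and 1.00, 4.37 and 9.38 in low tumors, with TC2288 the highest and TC1979, at 8.88, the next. Its log2 fold change was -3.24 ± 0.82 (SE; edgeR quasi-likelihood adjusted p = 0.138), and -2.35 without TC2288 (adjusted p = 0.316; from 0.0151 to 0.714 over all alternatives). The part of parathyroid tissue in these values was not tested.

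C cell markers summed to 7.52, 9.78 and 13.21 in high tumors and 7.85, 9.41 and 9.93 in low tumors, with TC22 the highest. *CALCA*, the calcitonin gene, had a level of 12.90 in TC22, 11.94 in TC812, 10.89 in TC1213, 10.24 in TC1744 and 9.87 in TC2089, against 9.38 at the highest in low tumors. These 5 of 16 high tumors lay above every low tumor, and *CALCA* had a log2 fold change of 3.03 ± 1.24 (SE; edgeR quasi-likelihood adjusted p = 0.367). *SCG2*, a granin of neuroendocrine cells, was at 2.64 ± 1.25 (SE) and at 0.95 without TC22. Its median level was 2.17 in high tumors and 2.81 in low tumors. *CALCA* and *SCG2* had the highest log2 fold changes of the 7 C cell markers tested. Of the 7, 6 were positive and 1 negative, with a median of 0.80, and the lowest were *SYP* at -0.66 and *RET* at 0.10. Skeletal muscle markers summed to 10.10, 10.92 and 12.45 in high tumors and 9.02, 10.88 and 12.31 in low tumors. Of 7 tested, 5 had positive and 2 negative log2 fold changes, with a median of 0.50. The highest was *MYH2*, a myosin of fast fibers (5.00 ± 1.81, SE; edgeR quasi-likelihood adjusted p = 0.317), and the lowest *ACTA1* at -0.17. *MYH2* had its highest level, 10.00, in TC2089, and 6 of 16 high and 5 of 8 low tumors had 0 counts of it. DESeq2 put *MYH2* at 0.99 and gave no adjusted p. The part of C cells and of muscle in these values was not tested.

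Within the 16 high tumors the *IGF2BP2* level still spanned 3.19 log2 units, and a further fit took it as a continuous measure in these tumors alone. Of 17223 genes tested, 16 (0.0929%) rose and 2 (0.0116%) fell with the level by edgeR's quasi-likelihood test at an adjusted p below 0.05. The 11 of them with a symbol were *LMX1B*, *LIX1*, *HOXA13*, *SMTNL1*, *PDIA2*, *EBF4*, *KAZALD1*, *KCNIP2*, *TIAM2* and *MTSS1*, which rose, and *ASIC2*, which fell. None of the 5 genes that differed between the groups was among the 18. This fit and these genes were chosen after the values were seen.

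*LMX1B* and *HOXA13*, homeodomain factors of limb development, rose by 2.51 and 2.31 log2 units per unit of the *IGF2BP2* level (edgeR quasi-likelihood adjusted p = 0.0261 for both). *LMX1B* had a level of 6.02 to 9.63 in TC812, TC1953 and TC2089, and of 0.95 to 5.18 in the other 13 high tumors, and *HOXA13* 5.27 to 8.62 against 0 to 3.73. *LIX1*, a gene of limb and smooth muscle development, had 9.78 to 10.61 in those 3 tumors and 0.97 to 6.60 in the other 13. *KAZALD1*, a secreted protein with an insulin-like growth factor binding domain, had 8.23 to 8.68 against 3.35 to 6.30. In the low tumors these genes did not exceed 3.94 (*LMX1B*), 3.62 (*HOXA13*), 7.27 (*LIX1*) and 5.50 (*KAZALD1*).

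The more abundant genes of this set followed the same tumors. *TIAM2*, an activator of the GTPase Rac, had a level of 11.18 to 12.25 in the 3 tumors and 7.49 to 10.20 in the other 13, and *MTSS1*, an actin-binding protein, 11.14 to 12.34 against 9.14 to 11.12. Their slopes were 1.10 and 0.82 log2 units per unit of the *IGF2BP2* level (edgeR quasi-likelihood adjusted p = 0.0261 for both). *ASIC2*, an acid-sensing ion channel, was between 6.82 and 7.45 in the 3 tumors and between 7.86 and 10.40 in the other 13, with a slope of -0.97 (adjusted p = 0.0274).

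The calls of this fit changed with single tumors, among them TC812, TC1953 and TC2089, the tumors with the highest *IGF2BP2* levels. In 13 of the 18 genes all 3 lay above the other 13 high tumors. The choice of these genes by the level favors that order. Without the 3 tumors, and so without the upper end of the level, 0 genes passed the quasi-likelihood test in either direction. A total of 967 then had an unadjusted p below 0.05. Leaving out TC1744, TC67, TC812 or TC902 alone also left 0 calls, and leaving out TC1953 or TC2089 left 1 and 2. The 3 tumors also stood together on the second principal component of the 1000 most variable genes, which held 12.4% of their variance, with scores of 54.0 to 71.4 against -37.1 to 12.5 in the other tumors.

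**Figure D5:**
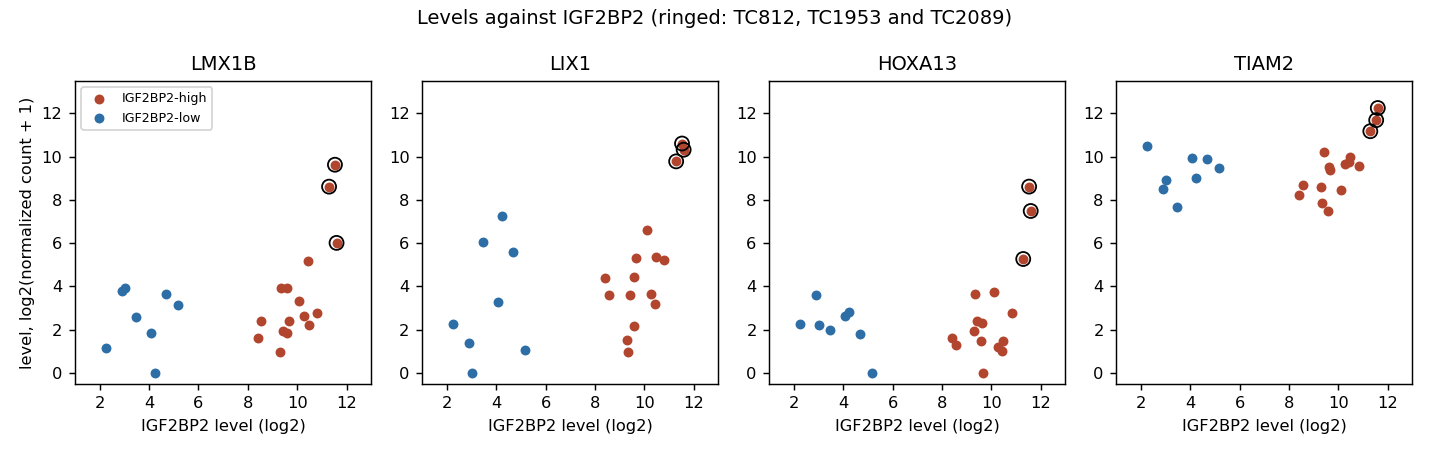
Level of *LMX1B*, *LIX1*, *HOXA13* and *TIAM2* against the level of *IGF2BP2*, both as log2 of the normalized count plus 1, with 1 point per tumor and TC812, TC1953 and TC2089 ringed. The 3 ringed tumors lie above the other high tumors for each gene, and the medians of the other 13 high tumors, 2.42 for *LMX1B* and 1.64 for *HOXA13*, are not above those of the low tumors, 2.87 and 2.22.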

How the data were processed

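RNA-seq of 30 canine thyroid tumors was used. Per the labels the authors used STAR and CanFam3.1, and they deposited raw, unnormalized counts of reads per Ensembl gene and tumor. The strand setting of the counting is not given in the sources used here. Of 30424 genes, 15780 had a symbol, and 0 columns belonged to no tumor. Between 12288945 and 45148677 reads per tumor were counted, which limits the precision for low genes, and a count of 0 allows up to 3 counts. This covers counting error only, and the counts are of reads, not of tagged molecules.

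Levels are log2 of the count over the median-of-ratios size factor (15611 genes, 30 tumors) plus 1. The MTC class and the exclusion of TC1088 follow the study. 0 pairs of tumors had identical counts. Genes with 10 counts in at least 5 of 24 tumors went into edgeR 4.0.16 under R 4.3.3 (TMM, quasi-likelihood, two-sided, Benjamini-Hochberg adjustment, adjusted p below 0.05), after a test on simulated data. *IGF2BP2* was left out of the test, since it set the groups. Log2 fold changes are of high over low tumors, and SE is the fold change over the root of the F statistic. DESeq2 1.42.0 and limma 3.58.1 were alternatives, with a missing adjusted p of DESeq2 (699 genes) not counted. Principal components and exact permutation tests used Python 3.11.15 with numpy 2.4.6 and pandas 2.3.3, and figures matplotlib 3.10.9. Each tumor is a single sample, so p-values measure the spread between tumors.

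The members, lists and tests were chosen with earlier results of these data known. Named genes are list members and up to 15 called genes per direction. Such called genes carry a symbol and reach a median of 100 normalized counts where they are higher. Where none passed, the 5 genes with the smallest p are named. Also named are the 5 with the highest rho with *IGF2BP2*. For rho, genes needed a symbol and a median of 100 normalized counts in the high tumors. Called genes outside this rule, the genes called by DESeq2 and the genes of the fit within high tumors were named after their values were seen. The order of genes, by symbol, was that of the UU_Cfam_GSD_1.0 assembly, whose coordinates were not used. Results of some genes are not reported here. Sequences, variants and the study's histology were not used here.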

Additional observations from a re-analysis of the deposited data

Results flagged for a closer look

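A value is given here when the highest or lowest of the 8 *IGF2BP2*-low tumors lay far from the other 7 (Dixon's ratio of the gap to the range, above its critical value). Of 72 measures examined, 64 of them genes, 14 met this. The critical value is set for about 1 in 20 groups by chance. The 14 cannot be weighed against that rate, since many of the genes were named for their values in these tumors. Measures of the same tumor are also related. TC538 accounted for 9, TC1241 for 4 and TC1218 for 1.

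In TC538 the level of ENSCAFG00000035645 was 10.74 (next 7.35) and that of ENSCAFG00000035038 was 11.52 (next 6.94), each the highest. The levels of *PAX8*, 10.84 (next 13.01), *ACSF2*, 5.57 (next 8.08), and *SMAD3*, 6.56 (next 8.44), were the lowest. In the same tumor 5.77% of counts were mitochondrial (next 2.68%), 37.9% fell on genes without a symbol (next 24.6%), 13515 genes had at least 10 counts (next 15444), and the Spearman correlation with the median tumor was 0.825 (next 0.927).

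In TC1241 the levels of *SLC1A2*, 11.77 (next 5.34), and *SHC4*, 9.04 (next 5.22), were the highest, and those of *IGF2BP3*, 3.47 (next 5.45), and *CLDN7*, 6.24 (next 9.74), the lowest. In TC1218 *SLC39A4* was at 7.75 (next 3.47). Their causes were not tested.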

How the results depend on the processing

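Against 0 genes higher in *IGF2BP2*-high and 5 higher in *IGF2BP2*-low tumors, DESeq2 called 34 and 53, no count filter 2 and 35, the *IGF2BP2* level as a covariate over 24 tumors 4 and 15, limma-trend 0 and 0, the inclusion of TC1088 0 and 3, and leaving out TC538 0 and 0. Of the alternatives chosen after seeing the data, DESeq2 without TC538 called 33 and 29, leaving out TC538 and TC1241 0 and 2, and leaving out TC812, TC1953 and TC2089 0 and 1. DESeq2's size factors, a stricter count filter, a log2 fold change limit of 2, cutoffs of 6 and 8 and robust edgeR gave 0 and 4 to 6. Leaving out each tumor in turn gave 0 to 1 and 0 to 16, with 0 higher in low tumors without TC538, TC1164, TC2110 or TC2402, 1 without TC640, 8 without TC1979, 9 without TC627, 11 without TC1241 and 16 without TC1218. The cause was not tested.

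List members called were 0, and 2 with DESeq2 (2 without TC538) and 1 with no count filter (*PTH*), and 0 to 0 with each tumor left out in turn. Within high tumors the 16 rising and 2 falling genes became 0 and 0 without TC812, TC1953 and TC2089, and ranged from 0 to 47 and from 0 to 13 with each tumor left out (47 and 13 without TC22, 6 falling without TC1123).

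Signs turned for genes that did not pass the quasi-likelihood test, except *SLC1A2*, which was at 0.24 without TC538 and TC1241 and at 0.26 with DESeq2 without TC538. With each tumor left out in turn, *TG* ranged from -0.19 to 1.28, *IGF2BP3* from -0.10 to 0.24, *TRA2B* from -0.33 to 0.10 and *EGFLAM* from -2.83 to 0.31, turning without TC1869, TC1994, TC538 and TC2011. Per unit of the *IGF2BP2* level *TG* was at -0.019 and *IGF2BP3* at -0.010. With limma-trend *IGF2BP3* was at -0.12 and *IGF1R* at -0.020. *IGF1R* was at -0.047 without TC812, TC1953 and TC2089, and *TRA2B* at 0.10 without TC538, 0.11 without TC538 and TC1241 and 0.11 with DESeq2 without TC538. Without TC538 the differences in total counts (-286551), size factor (-0.043) and share of the 10 most abundant genes (0.46 percentage points) had the other sign than with it (1572400, 0.063 and -1.38), and none passed. Over 64 named genes and 39 alternatives, 2341 fold changes kept direction and side of the threshold, 71 lost the call and 64 gained it. The gap in the *IGF2BP2* level was 3.43 with TMM scaling.

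With 8 low tumors, 1 tumor can set a fold change, and leaving out TC538 or TC1241 moved that of 4 of the 5 calls by over 1.5 times. Low counts limit what can be seen for *IGF2BP1*, *LIN28A* and *LIN28B*, and in low tumors for *KCNQ3* and *DGKB*. No paired analysis was possible because the labels give 1 group and their numbers only name tumors.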
